A study of Rattus norvegicus with 12 samples.

Results

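The p38 cascade was followed through its 9 measured genes in rat cell cultures exposed to SIN-1, a donor of peroxynitrite. The genes were the kinase at the top of the cascade, Map3k5, the kinases that activate p38, Map2k3 and Map2k6, the p38 kinases Mapk11, Mapk12, Mapk13 and Mapk14, and the p38-activated kinases Mapkapk2 and Mapkapk3. They are 9 of 18166 named genes on the array, each read by 1 probe set carrying that symbol alone. Map2k6 entered the set because it was low at 70 min, so its values at that time, and in any comparison that uses the control or 70 min arrays, are given as a description and were not tested. The other 8 genes were taken for their place in the pathway, with earlier results of these data known.

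The cultures were labelled as wild-type primary rat cardiomyocytes treated with SIN-1 for 70 min, 4 h or 8 h, or as control, with 3 arrays in each of 4 groups. The medium of every group held fetal bovine and horse serum. The labels do not state a SIN-1 concentration, a vehicle or a culture time for the control, and the same 3 control arrays serve every comparison with control. The study is described as done in biological triplicates, with nothing on whether cultures, dishes or animals were separate, so the p-values measure the spread between these arrays. Values are log2 expression after RMA, an array method that equalises the distributions of all arrays, and a change of 1 on this scale is a doubling.

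In this cascade a stress signal reaches a MAP kinase kinase kinase such as ASK1, the product of Map3k5, which is held inactive by reduced thioredoxin and released by oxidants. ASK1 phosphorylates the kinases MKK3 (Map2k3) and MKK6 (Map2k6), which in turn phosphorylate the p38 kinases on a threonine and a tyrosine. Active p38 phosphorylates MK2 (Mapkapk2) and MK3 (Mapkapk3), which control mRNA stability and the small heat shock proteins. In the heart p38 signalling is known for its part in ischaemic stress and hypertrophy. The arrays measured mRNA, so the phosphorylation by which the cascade signals was not measured here.

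The arrays within a group correlated at 0.991 to 0.995 across genes. The medians over all probes were highest in 70 min replicates 2 and 3 and 4 h replicate 3 (5.09 to 5.12, against 4.98 to 5.05 in the other 9 arrays). Several results that rest on these arrays are given with and without them, and some with their range over the alternatives. The cell label was checked against marker genes. Of 10 cardiomyocyte markers, 8 had a mean below the median of all named genes (5.75). The myosin heavy chain genes Myh6 and Myh7 averaged 3.78 and 3.57, below the median of 4.33 of the probes with no listed gene. The sarcomere or calcium release genes Actn2, Ryr2, Ttn and Mybpc3 averaged 4.33, 4.20, 4.49 and 4.45, near that median. Pln averaged 7.94 and Tnnt2 5.84. Of 8 fibroblast markers, 2 had a mean below the median of all named genes, Tcf21 (4.83) and Pdgfra (5.69), and Dcn averaged 5.83. The collagen genes Col1a1, Col1a2 and Col3a1 of the fibroblast list averaged 12.77, 12.46 and 11.80. In the smooth muscle and pericyte list Tagln averaged 12.46 and Pdgfrb 10.19, and 2 of its 4 measured markers lay below the median of all named genes. The sarcomere genes Tnnt2 and Tnni3 (5.57) were thus above the median of the probes with no listed gene (4.33). The myosin heavy chain genes averaged less than it, Actn2, Ttn and Mybpc3 were at or near it, and the samples are called cultures below. Fewer cells of a type and less RNA per cell cannot be told apart in such bulk samples.

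**Figure D1:**
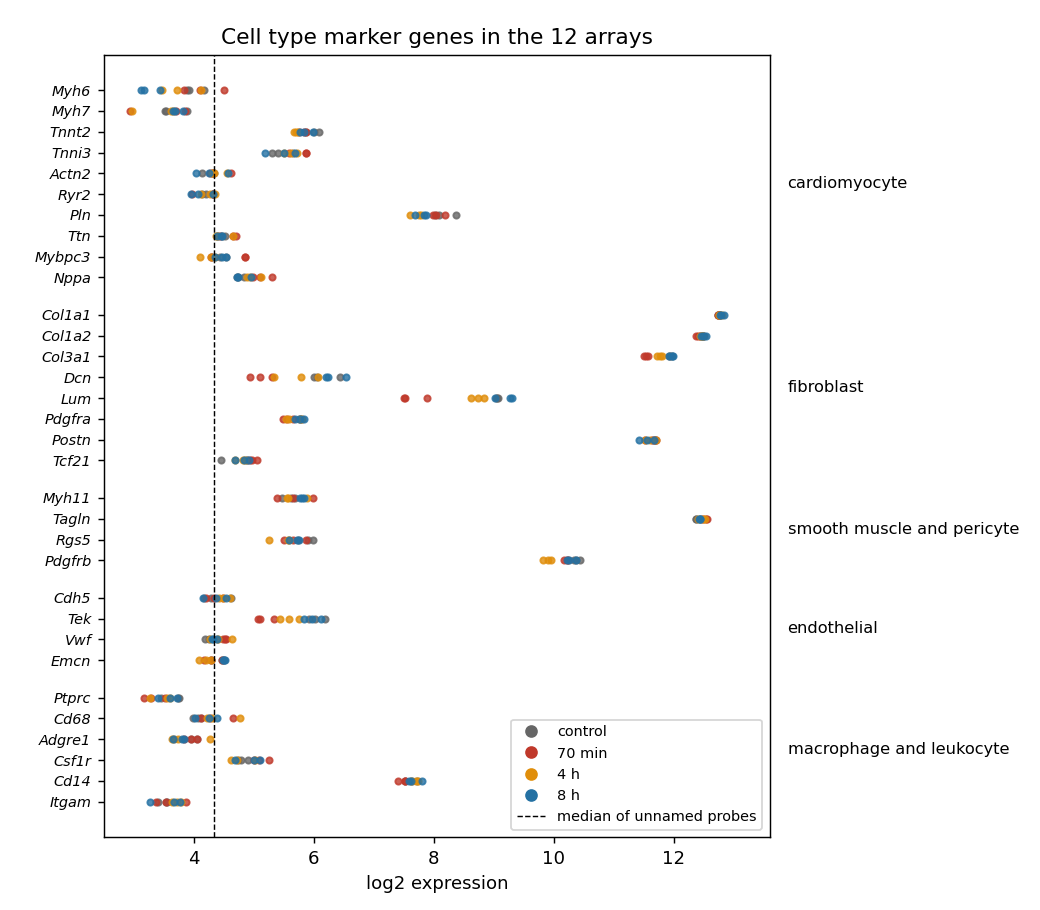
Log2 expression of cell type marker genes (rows, grouped by cell type) in each of the 12 arrays, coloured by group, with the median of unnamed probes (4.33) as a dashed line. Actn2 and Ryr2 lie at or near that line in every group and the group means of Myh6 and Myh7 lie below it. Col1a1, Col1a2 and Col3a1 lie above 11 in every array. Tcf21 of the fibroblast list averages 4.83, and Tagln of the smooth muscle and pericyte list 12.46. Levels of different probes are not on one scale.

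After 70 min of SIN-1 the transcripts of the 2 kinases that activate p38 went in opposite directions. Map2k6 stood 3.05-fold lower than in control, the value for which it was chosen, and Map2k3 was 1.39-fold higher. Mapkapk2 was 1.37-fold higher at the same time, while no p38 gene passed the test. By 4 h Map2k6, Map2k3 and Mapkapk2 were close to their control levels. At 8 h the Map2k6 arrays lay above the control arrays, a comparison that was not tested. Its tested difference between 8 h and 4 h did not pass (limma adjusted p = 0.163).

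The promoters of these 3 genes are shown because their transcripts moved most. Each runs from 250 bases before to 50 bases after the start annotated by RefSeq on the rat assembly GRCr8, at chr10:95872497-95872796 (plus strand) for Map2k6, chr10:46107389-46107688 (plus strand) for Map2k3 and chr13:45112277-45112576 (minus strand) for Mapkapk2. Capitals mark every match to a motif that was searched for.
Map2k6: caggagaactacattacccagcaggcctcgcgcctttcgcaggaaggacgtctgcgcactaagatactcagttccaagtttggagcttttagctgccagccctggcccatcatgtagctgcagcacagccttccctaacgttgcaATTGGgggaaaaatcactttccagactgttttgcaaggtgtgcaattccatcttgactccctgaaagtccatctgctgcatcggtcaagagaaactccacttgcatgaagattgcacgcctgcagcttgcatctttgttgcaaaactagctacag
Map2k3: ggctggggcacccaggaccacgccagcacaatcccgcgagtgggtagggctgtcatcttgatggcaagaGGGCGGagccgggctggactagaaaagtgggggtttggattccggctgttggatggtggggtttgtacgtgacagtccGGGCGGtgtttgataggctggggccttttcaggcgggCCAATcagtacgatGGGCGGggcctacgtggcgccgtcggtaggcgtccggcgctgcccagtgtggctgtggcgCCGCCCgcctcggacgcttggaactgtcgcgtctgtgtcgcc
Mapkapk2: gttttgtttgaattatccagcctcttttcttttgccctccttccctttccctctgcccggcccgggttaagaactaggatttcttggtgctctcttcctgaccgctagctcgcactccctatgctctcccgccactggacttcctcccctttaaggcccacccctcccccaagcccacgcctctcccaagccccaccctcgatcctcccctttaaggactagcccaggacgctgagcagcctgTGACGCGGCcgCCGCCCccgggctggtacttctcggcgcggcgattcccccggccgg
The motifs, read on both strands, were the TATA box TATAAA, the CCAAT box CCAAT, the GC box GGGCGG, the CRE core TGACG and full CRE TGACGTCA (which holds the core), the AP-1 site TGANTCA, the E-box CACGTG, the MEF2 site, the NR4A site AAAGGTCA, the EGR site GCGTGGGCG and the NRF2 core TGACNNNGC (which can overlap the CRE core). All 9 genes of the cascade matched an entry, among 33469 promoters of this length.

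The promoter of Map2k6 held 1 match, a CCAAT box read on the other strand, and was the only one of the 9 with no GC box. A GC box was present in the other 8 and in 33.1% of all promoters. Map2k3 had 4 GC boxes and 1 CCAAT box, and CCAAT was found in 37.5% of all promoters. Mapkapk2 had 1 GC box and 1 stretch in which the CRE core and the NRF2 core overlap, motifs held by 21.2% and 12.1% of promoters. Genes with no called difference held these motifs too. The CRE core was in Map3k5 and Mapkapk3, the NRF2 core in Mapkapk3 and CCAAT in Mapk14. GC made up 50.3% of the Map2k6 window, 66.0% of that of Map2k3 and 62.7% of that of Mapkapk2, against 51.7% in the median promoter. None of the 9 windows held the TATA box, full CRE, AP-1, MEF2, NR4A or EGR letters, which were in 14.2%, 1.83%, 7.33%, 3.84%, 1.43% and 0.544% of all promoters. The E-box, in 6.42% of promoters, was found in Mapk12 and Mapkapk3. A match describes the letters of the window and no binding was measured.

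**Figure D2:**
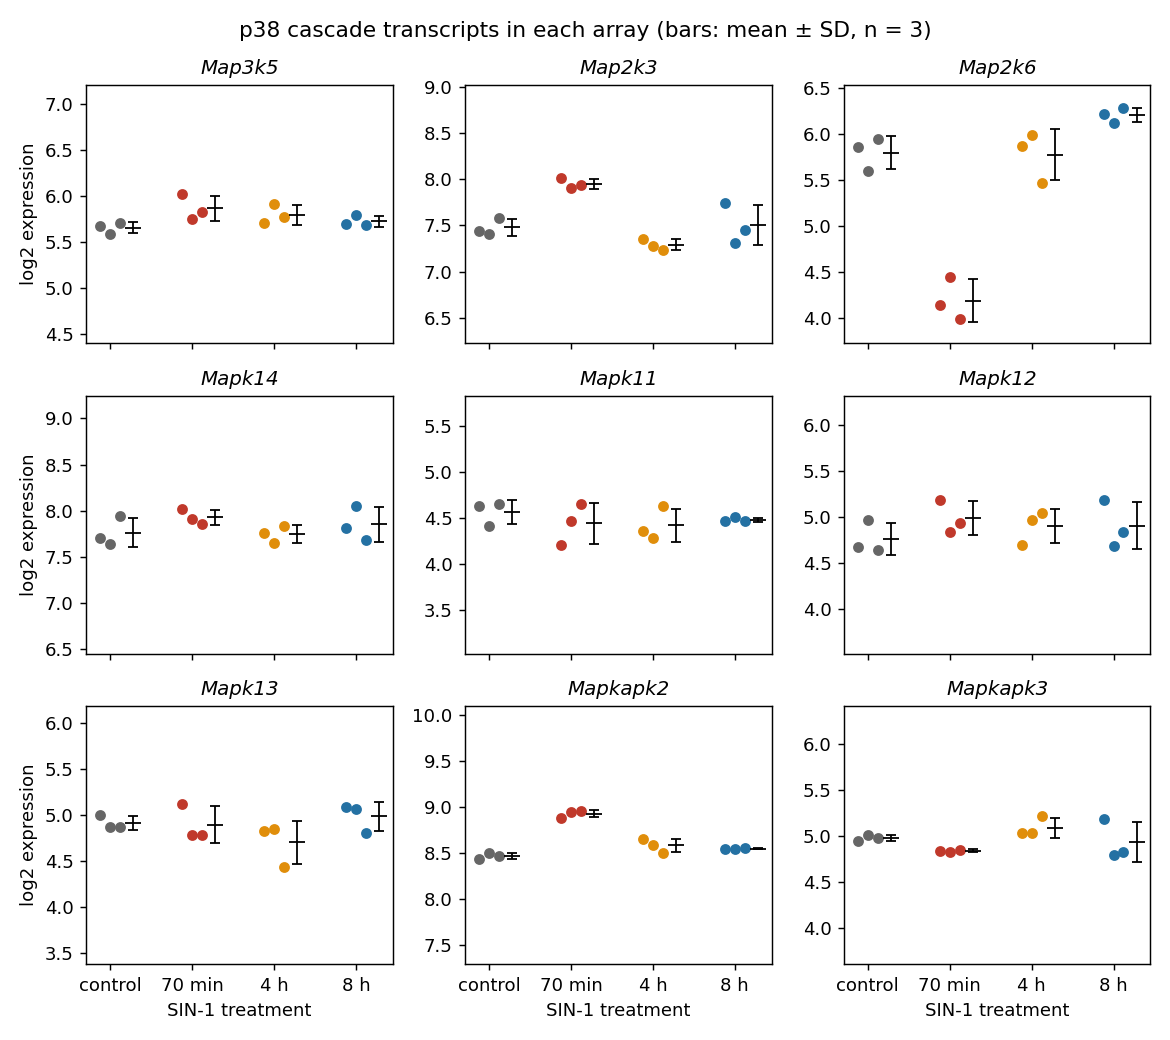
Log2 expression (vertical axes, all of equal span) of the 9 cascade genes in control cultures and after 70 min, 4 h and 8 h of SIN-1; points are arrays and bars are the mean ± SD (n = 3). Map2k6 is low in all 3 arrays at 70 min (3.98 to 4.44), where Map2k3 and Mapkapk2 are at their highest.

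Map3k5, which encodes the oxidant-sensitive kinase ASK1, changed little. It had 5.67, 5.59 and 5.71 in control arrays, 6.02, 5.75 and 5.82 at 70 min, 5.70, 5.92 and 5.77 at 4 h, and 5.69, 5.79 and 5.69 at 8 h. All 3 arrays at 70 min lay above the control range, whereas the 4 h and 8 h arrays overlapped it. The difference at 70 min was 0.21 ± 0.11 (log2 fold change ± SE), with a 95% interval of -0.03 to 0.44, and did not pass (limma adjusted p = 0.236). The intervals at 4 h (-0.09 to 0.38) and 8 h (-0.17 to 0.30) also spanned 0.

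Map2k6, one of the kinases that phosphorylate p38, had 5.85, 5.60 and 5.94 in control arrays, 4.14, 4.44 and 3.98 at 70 min, 5.87, 5.99 and 5.46 at 4 h, and 6.22, 6.12 and 6.27 at 8 h. The 70 min arrays lay more than 1 unit below every other array. The 4 h arrays spread over the whole control range, 4 h replicate 3 being the lowest, and the 8 h arrays lay above every control and every 4 h array. The means were 4.19 ± 0.23 at 70 min and 5.80 ± 0.18 in control (SD, n = 3 each), a log2 difference of -1.61 ± 0.15 (SE), and the 70 min mean was below the median of unnamed probes (4.33), where a fold change is less certain. This value chose the gene and was not tested.

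At later times the log2 difference of Map2k6 from control was -0.02 ± 0.15 (SE) at 4 h and 0.41 ± 0.15 at 8 h, with 95% intervals of -0.35 to 0.30 and 0.08 to 0.73. Both use the control arrays by which the gene was chosen, so they are given without a test, and without control replicate 2 the 8 h value was 0.31. Between 4 h and 70 min it stood 1.58 higher at 4 h. The comparison of 8 h with 4 h uses none of the arrays of the choice. There Map2k6 had a mean of 6.20 ± 0.08 at 8 h and 5.77 ± 0.28 at 4 h (SD, n = 3 each), a difference of 0.43 ± 0.15 (SE). The difference did not pass over all genes (limma unadjusted p = 0.0123, adjusted p = 0.163), although the arrays of the 2 times did not overlap. Over the alternatives the limma adjusted p ran from 0.108 to 0.484. The difference itself ran from 0.28, without 4 h replicate 3, to 0.54.

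Map2k3, the other p38-activating kinase, had 7.44, 7.41 and 7.59 in control arrays, 8.01, 7.90 and 7.94 at 70 min, 7.36, 7.28 and 7.24 at 4 h, and 7.75, 7.31 and 7.45 at 8 h. All 70 min arrays lay above the other 9, the 4 h arrays lay just below the control range, and 8 h replicate 1 was higher than the other 8 h arrays. At 70 min it was higher by 0.47 ± 0.10 (log2 ± SE), a 1.39-fold difference with a 95% interval of 0.26 to 0.68 on the log2 scale (limma adjusted p = 0.00351). Without the 3 arrays of highest median, which leaves 1 array at 70 min that is taken to vary like the other groups, the difference was 0.53 and did not pass (adjusted p = 0.0565). At 4 h and 8 h the differences from control of -0.19 ± 0.10 and 0.03 ± 0.10 (SE) did not pass (limma adjusted p = 0.403 and 0.996).

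The p38 genes encode the kinases on which the cascade converges. Mapk14 (p38 alpha, the form known as the main one in heart) had 7.70, 7.64 and 7.94 in control arrays, 8.02, 7.91 and 7.86 at 70 min, 7.76, 7.65 and 7.83 at 4 h, and 7.81, 8.05 and 7.68 at 8 h. The groups overlapped with control at each time. The log2 difference at 70 min was 0.17 ± 0.10 (SE), with an interval of -0.05 to 0.38 (limma adjusted p = 0.311), and at 4 h and 8 h it was -0.02 and 0.09.

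Mapk11 (p38 beta), Mapk12 (p38 gamma, known from skeletal muscle and heart) and Mapk13 (p38 delta) had low signals throughout. Mapk11 ran from 4.20 to 4.65 over the 70 min arrays and from 4.41 to 4.65 over control arrays. Mapk12 ran from 4.84 to 5.19 at 70 min and from 4.65 to 4.97 in control, and Mapk13 from 4.78 to 5.12 at 70 min and from 4.87 to 5.01 in control. For these 3 genes no difference from control passed at any time, the widest interval at 70 min being that of Mapk12, -0.11 to 0.56 (log2). Mapk13 at 4 h lay below all control arrays, at 4.82, 4.85 and 4.44 against 5.01, 4.87 and 4.87, a difference of -0.21 ± 0.15 (SE; limma adjusted p = 0.548). In the GRCr8 gene table Mapk11 and Mapk12 are neighbours on chromosome 7, and Mapk13 and Mapk14 on chromosome 20, with 0 protein-coding genes between them; neither pair had a called difference.

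Mapkapk2, whose product MK2 is the best known p38-activated kinase, had 8.44, 8.50 and 8.47 in control arrays, 8.88, 8.95 and 8.95 at 70 min, 8.65, 8.59 and 8.50 at 4 h, and 8.55, 8.54 and 8.55 at 8 h. The 70 min arrays were the highest 3 of the 12, and the 4 h and 8 h arrays lay just above the control range. At 70 min it was higher by 0.46 ± 0.06 (log2 ± SE), 1.37-fold with a 95% interval of 0.32 to 0.59 on the log2 scale (limma adjusted p = 8.04e-05), and its adjusted p stayed under 0.05 in every refit, the highest being 0.0126, although its change is smaller than the 1.5-fold minimum of another alternative. The differences at 4 h (0.11 ± 0.06) and 8 h (0.08 ± 0.06) did not pass (limma adjusted p = 0.433 and 0.955).

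Mapkapk3, which encodes the related kinase MK3, had 4.94, 5.01 and 4.98 in control arrays, 4.84, 4.82 and 4.85 at 70 min, 5.03, 5.03 and 5.22 at 4 h, and 5.18, 4.80 and 4.82 at 8 h. The 70 min arrays lay just below the control range and the 4 h arrays just above it, and 8 h replicate 1 stood apart from the other 8 h arrays. None of these differences passed, that at 70 min being -0.14 ± 0.13 (log2 ± SE; limma adjusted p = 0.514).

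**Figure D3:**
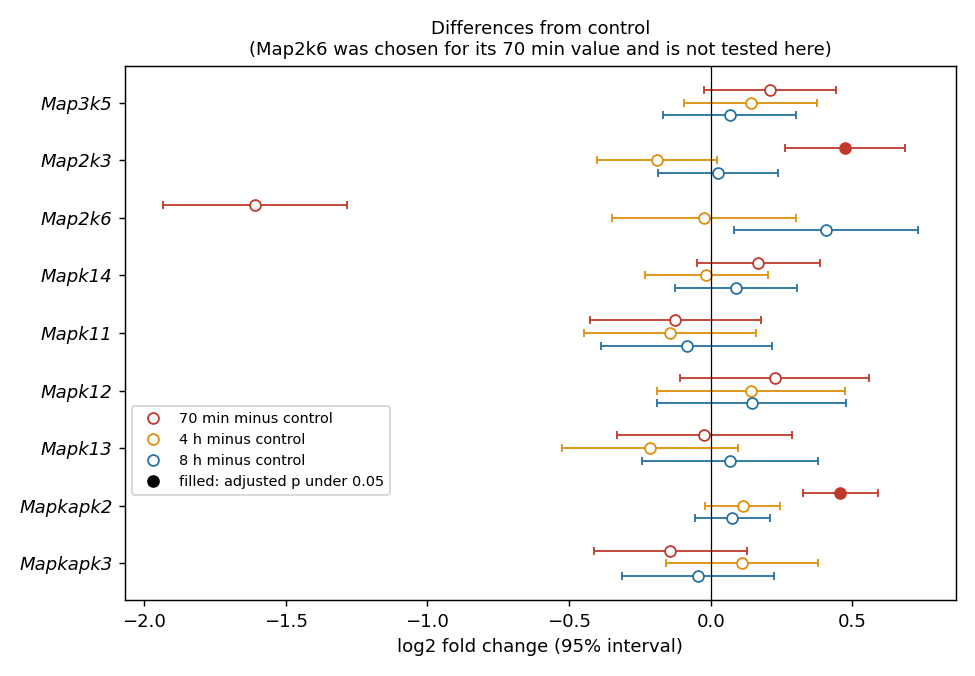
Log2 fold changes from control (horizontal axis) of the 9 cascade genes at 70 min, 4 h and 8 h with 95% intervals; filled points passed at an adjusted p under 0.05. Map2k3 and Mapkapk2 at 70 min are the only filled points, Map2k6 at 70 min lies at -1.61 and was not tested, and most other intervals span 0.

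Counted together at 70 min, 2 of the 8 tested cascade genes were called, both higher, where limma called 14.6% of all 18166 genes (6.76% higher and 7.81% lower). Of all called genes 46.4% were higher, 33.3% with arrays centred on their medians, 55.6% with the array median as covariate and 57.4% without the 3 arrays of highest median. The arrays at 70 min did not overlap control for 4 of the 8 (3 higher, 1 lower), against 31.8% of all genes (16.8% higher and 15.0% lower). The median log2 difference of the 8 genes was 0.19, beside 0.03 for all genes. Without the 3 arrays of highest median, which leaves 1 array at 70 min, Map2k3 was higher by 0.53 but did not pass. In the same comparison 3 of 8 fibroblast markers were called lower and none higher, and their summed linear signal was 18341 to 19209 at 70 min and 20401 to 20835 in control, while that of the cardiomyocyte markers was 524 to 549 and 509 to 571 with 0 of 10 called by limma (2 at an unadjusted p under 0.05). Such sums weigh the brightest markers most. These were Pln (mean 7.94) among the cardiomyocyte markers and Col1a1 (12.77) among the fibroblast markers. Of the smooth muscle and pericyte markers 1 of 4 was called higher, and of the endothelial markers 1 of 4 lower. Limma called none of 6 macrophage and leukocyte markers (2 at an unadjusted p under 0.05). The part of the marker genes in the cascade values was not tested. Such unadjusted counts, here and below, are given without the share of all genes at that threshold.

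At 4 h none of the 8 genes was called against control by limma (0 at an unadjusted p under 0.05), where 3.85% of all genes were (2.08% higher and 1.77% lower). The arrays did not overlap control for 4 of the 8, against 20.3% of all genes. At 8 h the count was also 0 (0 at an unadjusted p under 0.05), with 0.0275% of all genes called (5 genes), and 1 of the 8, Mapkapk2, did not overlap control, against 13.2% of all genes. The median log2 difference was 0.05 at 4 h and 0.07 at 8 h, beside 0.01 for all genes at each time.

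Between 70 min and 4 h, Map2k3 and Mapkapk2 fell, 2 of 8 genes, where limma called 7.63% of all genes (4.48% higher and 3.15% lower). The arrays of the 2 times did not overlap for 4 of the 8 genes, against 21.0% of all genes. Map2k3 averaged 7.29 ± 0.06 at 4 h and 7.95 ± 0.06 at 70 min (SD, n = 3 each), a difference of -0.66 ± 0.10 (SE) or 1.58-fold (adjusted p = 0.000383). Mapkapk2 averaged 8.58 ± 0.07 at 4 h and 8.93 ± 0.04 at 70 min, a difference of -0.34 ± 0.06 (SE; adjusted p = 0.00203). Map2k3 passed under every alternative tried. Mapkapk2 did not pass with arrays centred on their medians (-0.29, adjusted p = 0.0566) or without the 3 arrays of highest median (-0.26, adjusted p = 0.23). These differences share the 70 min arrays with the rises described above. Between 8 h and 4 h limma called none of the 9 genes (2 at an unadjusted p under 0.05, Map2k6 and Map2k3), where 3.51% of all genes were called, and only the arrays of Map2k6 did not overlap, against 18.7% of all genes.

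The genes whose values followed Map2k6 most closely over the 12 arrays were sought among 2158 genes whose group means spanned at least 0.5. The 8 closest were Wnt5a, a secreted Wnt ligand (Pearson r = 0.979), Arhgap28, a GTPase-activating protein (0.978), Pdk2, a kinase of the pyruvate dehydrogenase complex (0.978), Bbs2, a ciliary transport subunit (0.977), Sesn3, a sestrin (0.974), Ldb1, an adaptor of LIM-domain proteins (0.971), Rbl2, a retinoblastoma-family protein (0.970), and Adamts15, a secreted protease (0.970). The 12 points share their groups, and 188 of the 2158 genes had r above 0.9. Without the 70 min arrays r over the 9 arrays left, which were also part of the choice, was between 0.529 (Adamts15) and 0.918 (Wnt5a).

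Sesn3 was nearest to Map2k6 in depth, and the other genes of the 8 were shallower. Sesn3 averaged 8.61 at 70 min and 10.10 in control, Arhgap28 6.04 and 7.11, Pdk2 7.40 and 8.10, and Wnt5a 6.60 and 7.04. The 70 min arrays lay below the control arrays for all 8 genes, which their choice by likeness to Map2k6 over these same arrays fixes. At 8 h the means were 10.19 for Sesn3, 7.27 for Arhgap28, 8.22 for Pdk2 and 7.14 for Wnt5a. Each was a little above its control mean, as was that of Map2k6. The choice used the 8 h and control arrays too and so favours this likeness.

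**Figure D4:**
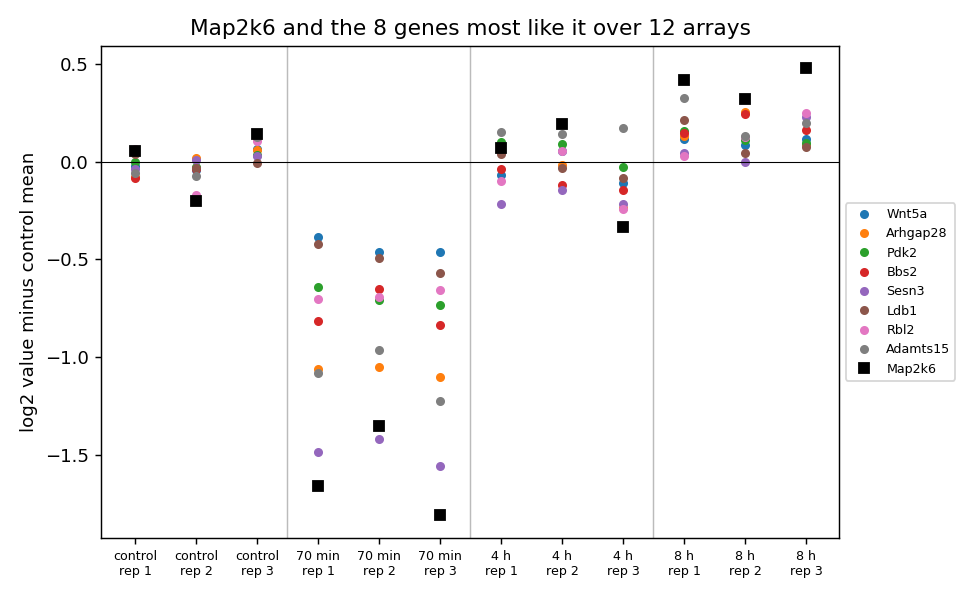
Log2 values minus the gene's control mean (vertical axis) in each array for Map2k6 (squares) and the 8 genes with the highest Pearson correlation to it. All 9 genes are lowest in the 3 arrays at 70 min, as the choice by likeness to Map2k6 requires, with Sesn3 nearest to Map2k6 in depth and Wnt5a and Ldb1 the shallowest.

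The wider pathway was read through 5 lists. Among 19 measured activators and adaptors upstream of p38, 1 rose and 3 fell at 70 min, where 6.76% of all genes were called higher and 7.81% lower (14.6% in all). Map3k6 (ASK2, a partner of ASK1) averaged 5.92 ± 0.03 at 70 min and 5.22 ± 0.16 in control (SD, n = 3 each) and was higher by 0.71 ± 0.11 (log2 ± SE; limma adjusted p = 0.000328). The GADD45 genes, whose proteins bind and activate the kinase MEKK4, fell together: Gadd45b by 0.73, Gadd45g by 0.54 and Gadd45a by 0.42 (adjusted p = 1.59e-05, 0.000578 and 0.000163). The median of the list was 0.01, beside 0.03 for all genes. Without the 3 arrays of highest median, which leaves 1 array at 70 min, Gadd45g was at -0.41 and did not pass. At 4 h 2 of the 19 were called, both higher, where 3.85% of all genes were. At 4 h Gadd45a was higher than control by 0.39 (adjusted p = 0.00142), and Gadd45g, Gadd45a and Gadd45b were higher at 4 h than at 70 min by 0.88, 0.81 and 0.68. Daxx, an adaptor of ASK1, was also called at 4 h (0.39, adjusted p = 0.0416), but not without any 1 of control replicates 1, 2 and 3 or 4 h replicates 1 and 2 (adjusted p = 0.0897, 0.133, 0.146, 0.185 and 0.0976), each of which leaves 1 called gene.

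Of 21 measured substrates and effectors, 4 rose and 4 fell at 70 min, where 14.6% of all genes were called (6.76% higher and 7.81% lower), with a median of 0.07. Mef2c, a muscle transcription factor phosphorylated by p38, was higher by 0.51 ± 0.10 (log2 ± SE; limma adjusted p = 0.00183), and Hspb1, the small heat shock protein phosphorylated by MK2, by 0.37 ± 0.09 (adjusted p = 0.00984). Ddit3, a stress transcription factor phosphorylated by p38, fell by 0.68, and Zfp36 (tristetraprolin, an mRNA-destabilising protein that MK2 inhibits) fell by 0.66 (adjusted p = 5.68e-05 and 0.000188). The kinases MSK1 (Rps6ka5) and MNK2 (Mknk2) fell by 0.39 and 0.33 (adjusted p = 0.0332 and 0.0231). Rps6ka5 lost its call when control replicate 1 (adjusted p = 0.13), control replicate 2 (0.0554), control replicate 3 (0.0831), 70 min replicate 2 (0.108) or 70 min replicate 3 (0.0719) was left out. Mknk2 lost it when control replicate 3 (0.134), 70 min replicate 2 (0.0657) or 70 min replicate 3 (0.104) was left out. Without the 3 arrays of highest median Rps6ka5 was at -0.35 and Mknk2 at -0.23. The count of 8 was 5 without control replicate 2, control replicate 3 or 70 min replicate 3, and 4 without 70 min replicate 2. The highest count with 1 array left out was 10. Without the 3 arrays of highest median, which leaves 1 array at 70 min, Mef2c at 0.49 and Hspb1 at 0.37 were about as high but did not pass. With arrays centred on their medians Hspb1 at 0.32 did not pass either (limma adjusted p = 0.0648). At 4 h 2 of the 21 were called, both lower, where 3.85% of all genes were, and Zfp36 was still lower than control by 0.63 (adjusted p = 0.00119). Mef2d, called lower at 4 h by 0.29 (adjusted p = 0.035), lost its call when any 1 of the control arrays (0.121, 0.0775 and 0.138 for replicates 1 to 3) or either of 4 h replicates 2 and 3 (0.0795 and 0.13) was left out, which leaves 1 called gene.

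Among 12 measured phosphatases that can act on p38, 2 fell at 70 min and none rose, a share near the 14.6% of all genes called. Dusp1, which dephosphorylates p38 in the nucleus, averaged 8.11 ± 0.06 at 70 min and 9.29 ± 0.02 in control (SD, n = 3 each), lower by 1.18, and Dusp8 was lower by 0.44 (limma adjusted p = 1.05e-08 and 0.00661). Dusp8 at -0.40 did not pass without the 3 arrays of highest median (0.113). At 4 h 3 of the 12 were called, where 3.85% of all genes were. Dusp1 was still lower by 0.78, while Dusp10, a phosphatase of p38 and JNK, was higher by 0.50 (adjusted p = 9.54e-06 and 0.000692). Ppm1a at 0.28 was called at 4 h (adjusted p = 0.0399) and lost that call without any 1 of the 6 arrays compared (0.0636 to 0.189) and with the replicate block (0.0542). At 8 h limma called none of the 12 (1 at an unadjusted p under 0.05), where 0.0275% of all genes were called.

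The other MAP kinase modules had 2 of 17 genes higher and 1 lower at 70 min, a share near the 14.6% of all genes called. Map2k4, which activates JNK and can act on p38, was higher by 0.38, Map2k1 of the ERK module higher by 0.30, and Map2k5 of the ERK5 module lower by 0.43 (limma adjusted p = 0.0117, 0.00448 and 0.0104). Map2k4 lost its call when control replicate 2 (limma adjusted p = 0.0677) or 70 min replicate 3 (0.0515) was left out. Map2k5 lost it when 70 min replicate 3 was left out (0.0639). Without the 3 arrays of highest median, which leaves 1 array at 70 min, Map2k4 was at 0.45, Map2k1 at 0.32 and Map2k5 at -0.24. None of these 3 genes passed there. With arrays centred on their medians neither Map2k4 nor Map2k1 passed (0.0826 and 0.0815). Limma called none of the 17 at 4 h (4 at an unadjusted p under 0.05), where 3.85% of all genes were called. At 8 h it called none of the 17 (1 at an unadjusted p under 0.05), where 0.0275% of all genes were.

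Transcripts with AU-rich elements that the p38 and MK2 pathway is known to stabilise were read as 9 genes. At 70 min 3 fell and none rose, where 14.6% of all genes were called (7.81% lower): Ptgs2 (cyclooxygenase 2) by 0.62, the cytokine gene Il6 by 0.60 and Ier3 by 0.55 (limma adjusted p = 0.000485, 0.00218 and 0.00042). The median of the 9 was 0.03, the same as for all genes. Il6 at -0.51 did not pass without the 3 arrays of highest median (0.102). At 4 h 3 of the 9 were called, all lower, where 3.85% of all genes were (1.77% lower). Il6 was lower by 0.77, the chemokine gene Ccl2 by 0.69 and Ptgs2 by 0.39 (adjusted p = 0.0012, 0.0211 and 0.0408), and the median was -0.24 beside 0.01 for all genes. Ccl2 lost its call when any 1 of the control arrays or of 4 h replicates 2 and 3 was left out (0.0669 to 0.0813), and Ptgs2 when any 1 of the control arrays or of 4 h replicates 1 and 3 was left out (0.0704 to 0.223), so that 1 gene was left called without any 1 of the control arrays or 4 h replicate 3. At 8 h limma called no gene of any of the 5 lists, where 0.0275% of all genes were called. At an unadjusted p under 0.05 there were 2 upstream activators, 2 substrates and effectors, 1 phosphatase, 1 gene of the other modules and 2 AU-rich transcripts. The share of all genes at that threshold is not given, so these counts are not read as an excess. The median of the 9 AU-rich transcripts at 8 h was -0.24, beside 0.01 for all genes.

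Between 4 h and 70 min the lists moved in both directions, with the 70 min arrays shared with the comparisons above and 7.63% of all genes called. Of the upstream activators 4 were higher at 4 h and 1 lower. They were the 3 GADD45 genes, Map3k4, which encodes the kinase MEKK4 itself (0.38, limma adjusted p = 0.0243), and Map3k6 (-0.41, adjusted p = 0.0319). Neither Map3k4 nor Map3k6 passed without 70 min replicate 3 or 4 h replicate 1 or 2, leaving 3 called. Of the substrates 3 were higher and 2 lower at 4 h. Ddit3 averaged 8.52 at 4 h and 7.79 at 70 min, and Mef2c averaged 8.78 at 4 h and 9.52 at 70 min, log2 differences of 0.73 and -0.75 (adjusted p = 5.08e-05 and 0.000124). Mef2d, a relative of Mef2c, was lower at 4 h (log2 difference -0.50, adjusted p = 0.000271). The MNK kinase genes Mknk2 (0.38) and Mknk1 (0.31) were called higher but passed neither without 70 min replicate 2 or 3 nor without 4 h replicate 1, which leaves 3 called. Dusp1 and Dusp10 were higher at 4 h by 0.40 and 0.39 (adjusted p = 0.00156 and 0.00292), and neither passed without the 3 arrays of highest median, at 0.46 and 0.33 (adjusted p = 0.0514 and 0.205).

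In the other modules Map2k5 was higher at 4 h than at 70 min by 0.43 (limma adjusted p = 0.0164), a call lost without 70 min replicate 3 (0.0975), while 2 genes were called without 70 min replicate 1. Of the AU-rich transcripts, Ccl2 averaged 5.73 at 4 h and 6.64 at 70 min, a log2 difference of -0.91 (adjusted p = 0.00135). Plaur, the urokinase receptor gene, at -0.39 and Vegfa, the vascular growth factor gene, at -0.26 were called lower at 4 h, and Ier3 at 0.31 higher (adjusted p = 0.0337, 0.0346 and 0.0424). Those 4 calls were 1 without 70 min replicate 1 or 4 h replicate 3, and 2 without 70 min replicate 3 or 4 h replicate 2. None of these 4 genes passed without the 3 arrays of highest median, which leaves 1 array at 70 min. With the replicate block Ier3 did not pass (0.0588).

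Between 8 h and 4 h limma called 3.51% of all genes. Of the lists it called 2 of 12 phosphatases, 2 of 21 substrates and effectors and 1 of 19 upstream activators. Dusp1 and Dusp10 moved in opposite directions. Dusp1 averaged 9.21 at 8 h and 8.51 at 4 h, a log2 difference of 0.70, and Dusp10 averaged 8.82 at 8 h and 9.32 at 4 h, a difference of -0.50 (limma adjusted p = 2.08e-05 and 0.00075). Zfp36 was higher at 8 h by 0.55 (adjusted p = 0.00395). Mef2d at 0.33 (adjusted p = 0.0174) was lost without 4 h replicate 2 or 3 or 8 h replicate 1 or 2, leaving 1 called substrate, and Gadd45a at -0.24 (adjusted p = 0.0418) was lost without any 1 of the 6 arrays compared. Limma called none of the 17 genes of the other modules (2 at an unadjusted p under 0.05) and none of the 9 AU-rich transcripts (4 at an unadjusted p under 0.05; 1 was called without 8 h replicate 3).

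**Figure D5:**
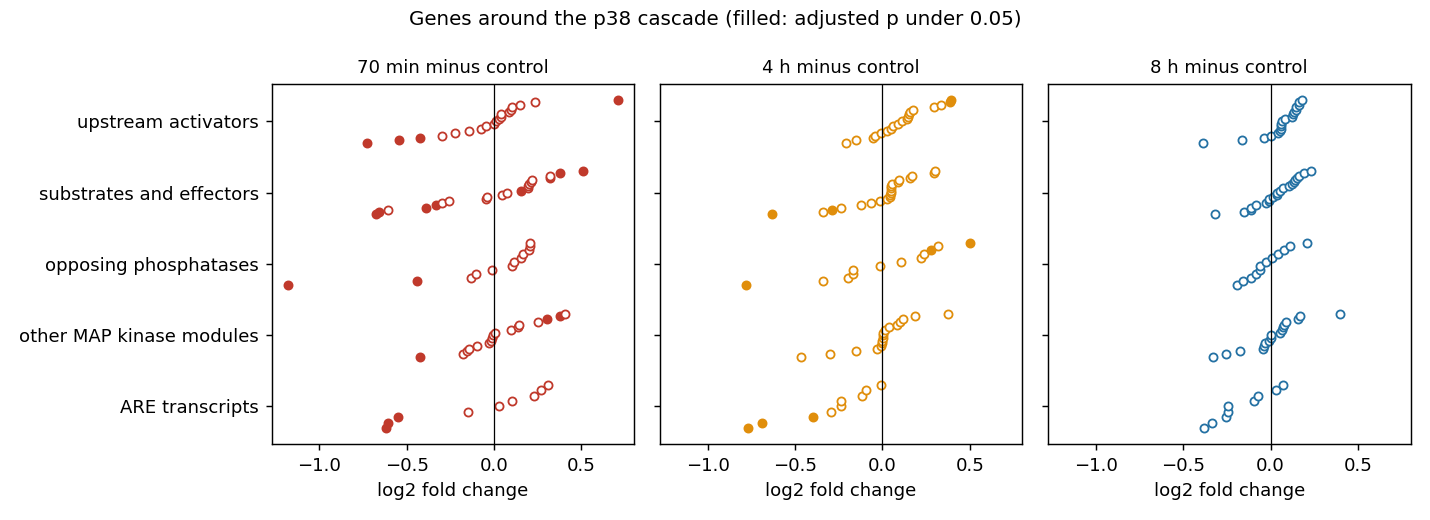
Log2 fold changes from control (horizontal axes) of the genes in 5 lists around the p38 cascade at 70 min, 4 h and 8 h; each point is a gene and filled points passed at an adjusted p under 0.05. Filled points lie on both sides of 0 at 70 min and at 4 h, Dusp1 at 70 min lies farthest out at -1.18, and no point is filled at 8 h.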

How the data were processed

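Per the labels' protocols, total RNA of the 12 samples was amplified and carried a biotin label, read in a single colour. RMA and Affymetrix Expression Console (version 1.3.1.187) are the tools in the submitters' processing notes, and 1 table of 36685 probes was deposited. The deposited values are taken as log2 expression from their range (1.19 to 13.63), since no unit is stated. RMA equalises array distributions, so a change in total RNA per cell is removed, and it compresses folds near background. The genome build is not given in the sources used here.

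Of the probes 18511 had 1 symbol in the platform's annotation, 575 had several and 17599 were unlisted; 18394 of the named matched RefSeq (assembly GRCr8), and the brightest probe of a gene was kept, leaving 18166 genes. A model of group over all 12 arrays was fitted with limma 3.58.1 in R 4.3.3 (eBayes with trend, 8 residual degrees of freedom), 5 comparisons were tested two-sided and adjusted by Benjamini-Hochberg over all genes, and a call needs an adjusted p below 0.05. Errors are stated as SD (3 arrays) or SE (from the fit), and precision is set by having 3 arrays a group. The fit was tested on simulated data. Counts at an unadjusted p under 0.05 are given without the share of all genes at that threshold, so they are not compared with a background. The members and lists were chosen with earlier results of these data known.

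Named were the 9 cascade genes, up to 6 called genes of each list with the largest change in a comparison, and the 8 genes closest to Map2k6; some genes of the lists are not reported here. Same-numbered arrays did not deviate together (r of deviations -0.32 to 0.24, over 0.1 in 5 of 18 pairs), so replicate numbers were not taken as pairs. Alternatives were a replicate block, no trend, further quantile normalization, centring, the array median as covariate, 3 arrays left out, brighter genes, the mean of probes, compared groups alone, a 1.5-fold minimum and each array left out. Figures were drawn with matplotlib 3.10.9.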

Additional observations from a re-analysis of the deposited data

Results flagged for a closer look

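The levels of 2 cascade genes differed between 4 h and 70 min of SIN-1, tested as the difference between those arrays. The control group has no stated culture time and serves every time, so time in culture and SIN-1 exposure cannot be told apart. Map2k3 was lower at 4 h than at 70 min (log2 difference -0.66, limma adjusted p = 0.000383), with all 3 arrays at 4 h below all 3 at 70 min. Mapkapk2 was lower at 4 h (log2 difference -0.34, limma adjusted p = 0.00203), again with no overlap of the arrays. Map2k6 was 1.58 higher at 4 h and was not tested there, having been chosen for its level at 70 min.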

How the results depend on the processing

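Of 45 differences of cascade genes, 42 kept their side of the threshold, or stayed within 1 SD where there was no test, under every refit run (the 1.5-fold minimum, which was applied to counts only, is given separately), and no called value changed sign. The exceptions are Map2k3 at 70 min and Mapkapk2 between 4 h and 70 min, and Map2k6 at 8 h without control replicate 2, all given above. The call count among the 8 tested genes at 70 min (2) was 1 without the 3 arrays of highest median and 0 with a 1.5-fold minimum; between 4 h and 70 min (2) it was 1 with arrays centred, 1 without those 3 arrays and 1 with the 1.5-fold minimum. Over all genes the counts were as follows, and the cause of each move was not tested. At 70 min, 2647 were called, 1046 without the 3 arrays, 1751 (without control replicate 1) to 3106 with 1 array left out, and 739 at 1.5-fold. At 4 h, 699 were called, 339 without trend, 341 with arrays centred, 373 to 575 with 1 array left out (380, 373 and 444 on dropping control replicates 1 to 3 in turn, 437 on dropping 4 h replicate 1) and 178 at 1.5-fold. At 8 h, 5 were called, 9 with the replicate block and 2 without trend. Between 4 h and 70 min, 1386 were called, 318 without the 3 arrays, 763 with the compared groups alone, 885 (without 70 min replicate 3) to 1799 with 1 array left out (909 without 4 h replicate 2) and 396 at 1.5-fold. Between 8 h and 4 h, 637 were called, 315 without trend, 300 with arrays centred, 330 with the compared groups alone, 299 (without 8 h replicate 2) to 504 with 1 array left out and 149 at 1.5-fold. The share of calls that were higher between 4 h and 70 min was 58.7%, and 73.2% with arrays centred or 46.6% with the array median as covariate; between 8 h and 4 h it was 56.2%, and 66.3% with arrays centred. The replicate block changed no call among the cascade genes. Of 50 named differences of list genes, 28 lost their call under at least 1 alternative. Genes near background, among them Mapk11 and Map2k6 at 70 min, have less certain folds.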
